A study of Mus musculus with 1 sample.

Results

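The integrin genes of circulating T cells were examined in 1 library of single-cell RNA sequencing: the α subunit genes Itgal, Itga4, Itgae and Itga6 and the β subunit genes Itgb1, Itgb2 and Itgb7, which are 7 of the 26 integrin subunit genes and of 32285 genes in the table. The genes were chosen by name, with earlier results of these data known. Their UMIs (tags that each mark 1 captured RNA molecule) were counted over the 1600 droplet barcodes that held more than 1330 UMIs. The library came from 1 mouse of a conditional Rb1/Trp53 deletion model of small cell lung cancer (SCLC) on a C57BL/6 background, in which Adeno-Cre virus is given into the trachea, so that deletion follows wherever the virus enters a cell. The mouse received the vehicle, phosphate-buffered saline, every 3 days. From 150 µl of its blood, T cells were enriched by negative selection, and the combination-treated mouse of the study was not analysed here.

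Integrins are adhesion receptors built of 1 α and 1 β chain. On lymphocytes, Itgal and Itgb2 encode LFA-1, which binds ICAM proteins and holds T cells to antigen-presenting cells, tumor cells and vessel walls. Itga4 pairs with Itgb1 to form VLA-4, which binds VCAM-1 on inflamed endothelium, or with Itgb7 to form LPAM-1, which binds MAdCAM-1 in gut vessels. Itgae encodes CD103, which pairs with Itgb7 alone, binds E-cadherin and is best known from T cells that reside in epithelia, while Itga6 with Itgb1 forms a laminin receptor. Integrins are controlled largely by conformation at the cell surface, which RNA counts do not show.

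Barcodes were sorted into 5 classes that do not overlap. CD4-only barcodes held Cd4 UMIs and none of Cd8a, Cd8b1 or Cd79a, and CD8-only barcodes held Cd8a or Cd8b1 UMIs and none of Cd4 or Cd79a. Each was split by the presence of an UMI of S100a4, a gene abundant in memory and effector T cells, which gave 317 CD4 S100a4-, 49 CD4 S100a4+, 621 CD8 S100a4- and 85 CD8 S100a4+ barcodes. The fifth class was the 106 barcodes with a UMI of Cd79a, a B cell receptor gene. Another 49 barcodes with both Cd4 and CD8 UMIs and 373 without any of these genes were left out of the comparisons. Values are UMIs pooled over the barcodes of a class per 10000 UMIs, with exact Poisson 95% intervals in parentheses. Because there was 1 library of 1 mouse, no test was run, and the intervals cover counting error only, not the spread between barcodes or between mice. Intervals called apart or overlapping below are to be read with that limit.

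The labels of the classes were checked against marker genes. The summed level of 6 T cell genes was 24.9 to 33.8 in the T classes and 5.03 in the Cd79a class, and the summed level of 5 B cell genes was 61.9 in the Cd79a class and at most 1.4 in the T classes. Of the 106 Cd79a barcodes, 23 also held a Cd3 UMI. Of 4 monocyte genes, the summed level was 4.31 in the Cd79a class, with Csf1r and Fcgr3 at 0, and 0.119 to 0.154 in the T classes. Of 4 neutrophil genes, it was 1.48 in CD8 S100a4- barcodes, where 8 barcodes held a UMI of them, and 0 to 0.0257 in the other classes. NK cell genes were at 0 in CD4 S100a4- barcodes and summed to 0.273 to 2.06 in the other T classes, and platelet genes summed to 0.607 to 1.67 over the 5 classes. Depth differed, with a median of 3194 UMIs in CD4 S100a4-, 4764 in CD4 S100a4+, 5342 in CD8 S100a4-, 6166 in CD8 S100a4+ and 3657 in Cd79a barcodes. Shares of barcodes with a UMI are therefore given after thinning each barcode to 2500 UMIs, with shallower barcodes left out. RNA quality differed as well: barcodes with fewer than 10% of UMIs on ribosomal protein genes made up 43.5% of CD4 S100a4-, 10.2% of CD4 S100a4+, 33.0% of CD8 S100a4-, 5.88% of CD8 S100a4+ and 26.4% of Cd79a barcodes. Of the 1600 barcodes, 65 lay between 8 and 12%. Values without these low ribosomal barcodes are given beside many of the results, not beside each one they moved. The part of these barcodes in the results was not tested beyond that. The level in 20532 barcodes of 10 to 50 UMIs, which hold mostly free RNA, is given where a class lay at or below it.

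Promoter sequences are shown for Itgb1, Itgb7 and Itga4, the genes whose products share partners in VLA-4 and LPAM-1, since their RNAs took different orders over the classes. They run from 250 bases before to 50 bases after the annotated start (RefSeq, GRCm38.p6), 5′ to 3′ on the strand of the gene. Capitals mark matches on either strand to the RUNX motif TGTGGT, the ETS motif GGAAGT, the GC box GGGCGG or the CACCC box CACCC, of which the RUNX and CACCC letters may overlap.
Itgb1, chr8:128685404-128685703, plus strand: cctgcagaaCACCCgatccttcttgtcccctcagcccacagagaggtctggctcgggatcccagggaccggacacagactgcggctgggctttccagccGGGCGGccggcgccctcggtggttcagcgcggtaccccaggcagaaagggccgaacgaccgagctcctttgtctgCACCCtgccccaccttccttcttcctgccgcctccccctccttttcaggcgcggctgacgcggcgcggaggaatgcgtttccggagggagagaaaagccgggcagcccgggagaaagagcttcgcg
Itgb7, chr15:102231886-102232185, minus strand: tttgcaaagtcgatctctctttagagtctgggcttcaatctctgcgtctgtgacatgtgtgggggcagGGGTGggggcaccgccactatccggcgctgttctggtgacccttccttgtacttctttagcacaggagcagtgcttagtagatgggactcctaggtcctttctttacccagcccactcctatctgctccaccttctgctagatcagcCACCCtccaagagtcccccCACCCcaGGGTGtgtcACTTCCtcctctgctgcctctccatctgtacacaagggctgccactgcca
Itga4, chr2:79255176-79255475, plus strand: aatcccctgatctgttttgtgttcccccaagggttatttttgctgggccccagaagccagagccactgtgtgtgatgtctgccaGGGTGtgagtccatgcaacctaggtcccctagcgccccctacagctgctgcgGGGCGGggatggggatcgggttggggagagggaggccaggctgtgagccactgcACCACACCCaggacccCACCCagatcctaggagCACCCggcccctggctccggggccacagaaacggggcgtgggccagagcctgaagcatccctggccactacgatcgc

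The Itgb1 window held 27 CpG dinucleotides, against 10 in Itga4 and 5 in Itgb7. A GC box was found once each in Itgb1 and Itga4, and 35.7% of all 32851 promoter windows held one. The RUNX motif was found once in Itga4 (16.8% of windows held it), the ETS motif once in Itgb7 (23.8%), and CACCC boxes 2 times in Itgb1 and 4 times each in Itgb7 and Itga4 (57.5%). The matches describe these windows and say nothing of binding. The gene bodies lie at chromosome 8, 128685654 to 128733579 for Itgb1, chromosome 15, 102215994 to 102233405 for Itgb7 and chromosome 2, 79255426 to 79333114 for Itga4. The annotated start used for the Itgb7 window thus lay inside the gene and not at its end. Itgal lies on chromosome 7 (127296139 to 127335137), Itgb2 on chromosome 10 (77530329 to 77565708), Itgae on chromosome 11 (73090505 to 73147449) and Itga6 on chromosome 2 (71786886 to 71858427).

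All 7 genes were detected in every class, in different orders. The order of Itgb7 was CD4 S100a4+, CD4 S100a4-, CD8 S100a4+, CD8 S100a4- and Cd79a, and that of Itgal was CD4 S100a4+, CD8 S100a4+, CD4 S100a4-, CD8 S100a4- and Cd79a, where the intervals of neighbors overlapped only for CD4 S100a4- and CD8 S100a4+ (Itgb7) and for both S100a4+ classes (Itgal). For Itgb2, both S100a4+ classes overlapped, as did both S100a4- classes, and for Itga4 the 3 highest classes, CD4 S100a4+, CD8 S100a4+ and CD4 S100a4-, overlapped and lay above Cd79a and CD8 S100a4-, which also overlapped. The order of Itga4 was another without low ribosomal barcodes: CD4 S100a4+ and CD8 S100a4+, at 9.17 (8.06 to 10.4) and 7.48 (6.78 to 8.23), then lay above CD4 S100a4-, at 4.77 (4.30 to 5.28), which overlapped Cd79a, at 4.22 (3.58 to 4.94). For Itgb2, the S100a4- classes then came apart, at 2.66 (2.31 to 3.04) in CD4 and 2.08 (1.93 to 2.25) in CD8 barcodes. For Itgal, the S100a4- classes then overlapped, at 1.34 (1.10 to 1.62) in CD4 and 1.05 (0.939 to 1.16) in CD8 barcodes. Itgb1 was highest in CD4 S100a4+ barcodes, Itgae in CD8 S100a4- barcodes, Itga6 in CD4 S100a4- barcodes and Itgb2 in CD8 S100a4+ barcodes. Levels are compared here between classes for 1 gene at a time, not between genes.

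**Figure D1:**
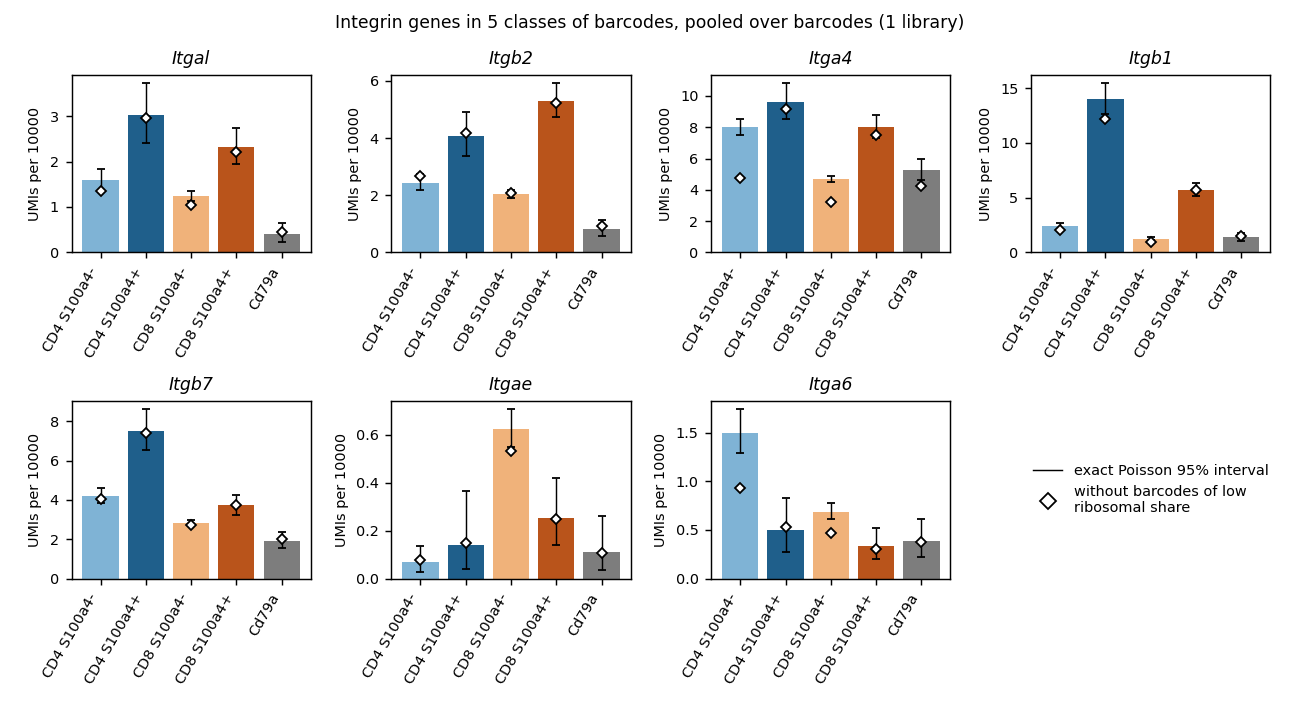
UMIs per 10000 (vertical axis, from 0, a separate scale in each panel) of each integrin gene in the 5 classes of barcodes. Bars are pooled rates with exact Poisson 95% intervals, and diamonds are the rates without barcodes of low ribosomal share. Itgb1 stands at 14.0 in CD4 S100a4+ barcodes against 1.26 to 5.72 in the other classes, and the diamond of Itga4 lies well under its bar in both S100a4- classes.

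Itgb1, the β1 chain shared by VLA-4, the laminin receptor and the collagen receptors, set the S100a4+ barcodes apart in both lineages. Its level was 2.37 (2.10 to 2.67) in CD4 S100a4-, 14.0 (12.7 to 15.5) in CD4 S100a4+, 1.26 (1.15 to 1.38) in CD8 S100a4-, 5.72 (5.13 to 6.37) in CD8 S100a4+ and 1.37 (1.05 to 1.76) in Cd79a barcodes. The intervals of neighbors in this order were apart, except those of Cd79a and CD8 S100a4- barcodes. Both of these lay below the free RNA level of Itgb1, 1.45 (1.20 to 1.73), with intervals that overlapped it. That level is the share of Itgb1 within free RNA, not the amount that free RNA adds to a barcode. In the CD8 S100a4- class, 27 barcodes with 5 or more Itgb1 UMIs held 37.8% of the class total. In the Cd79a class, 5 such barcodes held 62.3%. With free RNA subtracted, set at 5%, all 35 class levels of the integrin genes were counted as unchanged. Such a subtraction hardly moves a level that is close to that of free RNA. It therefore cannot show what part of the Cd79a and CD8 S100a4- levels is free RNA, and that part was not tested. After thinning, an Itgb1 UMI was found in 34 of 45 CD4 S100a4+ barcodes (75.6%, exact binomial interval 60.5 to 87.1), in 50 of 84 CD8 S100a4+ barcodes (59.5%), in 22.4% of CD4 S100a4-, in 18.7% of CD8 S100a4- and in 13.9% of Cd79a barcodes. A single barcode of the CD4 S100a4+ class held 57 Itgb1 UMIs, 14.4% of the class total. Leaving out low ribosomal barcodes, the level in that class was 12.2 (10.9 to 13.6).

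The Itgb1 UMIs of the CD4 S100a4- class were held by few barcodes. Of its 317 barcodes, 238 had none, and the 21 barcodes (6.62%) with 5 or more held 68.6% of the class total. In CD4 S100a4+ barcodes, 28 of 49 (57.1%) had 5 or more, against 27 of 85 (31.8%) in CD8 S100a4+ and 27 of 621 (4.35%) in CD8 S100a4- barcodes. These shares were counted without thinning, so that the depth of the classes differs between them. The 21 high barcodes of the CD4 S100a4- class also held more of 4 other memory genes. S100a6, S100a10, Cd44 and Lgals1 together stood at 24.7 (21.5 to 28.3) in them, at 6.24 (5.22 to 7.39) in barcodes with 1 to 4 Itgb1 UMIs and at 4.26 (3.84 to 4.72) in those with none, at median depths of 3661, 3231 and 3150 UMIs. The absence of an S100a4 UMI thus left in this class some barcodes with both Itgb1 and memory gene RNA.

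The first comparison was between lineages among S100a4- barcodes. Of the 7 genes, Itgae was at least 2-fold higher in CD8 barcodes, as were 2.51% of 6413 genes with at least 100 UMIs, and Itga6 was at least 2-fold lower, as were 4.4%. The other 5 genes were lower in CD8 barcodes by less than 2-fold. With low ribosomal barcodes left out, Itgae was again higher by that fold (2.25% of 5032 genes were) and Itgb1, not Itga6, was lower (3.08%), with a ratio of 0.464 (0.383 to 0.565). The median log2 ratio of the 7 genes was -0.57, and that of all genes was -0.23, so that the members are read against a shifted center. The median barcode of the CD8 class held 26.0% of its UMIs on ribosomal protein genes, and that of the CD4 class 15.0%. Itgal, with a log2 ratio of -0.35, and Itgb2, with -0.26, lay close to that all-gene median.

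Among the 7 genes, Itgae separated the lineages most. It stood at 0.0685 (0.0296 to 0.135) in CD4 S100a4- barcodes, from 8 UMIs and below the free RNA level of 0.132, and at 0.622 (0.547 to 0.705) in CD8 S100a4- barcodes, from 246 UMIs, a ratio of 9.08 (conditional exact interval 4.54 to 21.3). The ratio was 6.93 (3.12 to 19.1) without low ribosomal barcodes. An Itgae UMI was found in 4 of 317 CD4 S100a4- and 144 of 621 CD8 S100a4- barcodes, and after thinning in 0.862% and 14.6%. The share in Cd79a barcodes, which should lack CD103, was 1.27% after thinning, 1 of 79 barcodes. Of all 6413 genes, 99.5% had a lower ratio. The UMIs of the CD8 class were spread over many barcodes, and the highest barcode held 5.

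Itgae was lower where the CD8 barcodes carried memory or effector RNA. It stood at 0.254 (0.142 to 0.419) in CD8 S100a4+ barcodes, 0.408 times the CD8 S100a4- level (0.225 to 0.687), although 7 of the 15 UMIs there came from 1 barcode. Within the CD8 S100a4- class it stood at 0.226 (0.163 to 0.305) in the 211 barcodes with UMIs of both Ly6c2 and Il2rb, genes of memory CD8 T cells, and at 0.975 (0.846 to 1.12) in the other 410. Their median depths were 8980 and 4257 UMIs, and 31 and 174 of them were of low ribosomal share, without which the levels were 0.240 (0.172 to 0.326) and 0.855 (0.715 to 1.02). In the 57 CD8 S100a4- barcodes with Gzmk or Cx3cr1, effector genes, only 2 Itgae UMIs were found, at 0.0704 (0.00852 to 0.254), against 0.665 (0.584 to 0.754) in the other 564. Each of these splits left the higher Itgae level in the barcodes without the memory or effector genes.

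Among CD4-only barcodes, Itgae UMIs were few, 12 in all. Of these, 5 were in the 15 barcodes with a UMI of Foxp3, the gene of the regulatory T cell transcription factor, where the level was 0.640 (0.208 to 1.49), and 7 were in the other 351 barcodes, where it was 0.0510 (0.0205 to 0.105). Of those 5 UMIs, 4 were in 1 barcode, without which the level was 0.136 (0.00343 to 0.755), with an interval that overlapped that of the other barcodes. Its β partner Itgb7 stood higher in Foxp3 barcodes, at 7.93 (6.08 to 10.2) against 4.67 (4.31 to 5.04), while Itga4 stood lower, at 3.07 (1.97 to 4.57) against 8.60 (8.12 to 9.11). Only 1 of the 15 Foxp3 barcodes was of low ribosomal share, against 142 of the other 351, and 6 of the 15 held S100a4, against 43 of the 351. In CD4 S100a4- barcodes Itga4 stood at 14.5 in those of low ribosomal share and 4.77 in the others. The part of this in the Foxp3 split was not tested. The Itga4 level of 3.07 in Foxp3 barcodes lay below its free RNA level of 4.11.

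Itga6, the laminin receptor chain, was highest in CD4 S100a4- barcodes, at 1.5 (1.28 to 1.74). It stood at 0.497 (0.272 to 0.833) in CD4 S100a4+, 0.688 (0.609 to 0.775) in CD8 S100a4-, 0.339 (0.207 to 0.523) in CD8 S100a4+ and 0.382 (0.223 to 0.612) in Cd79a barcodes. Only the first of these levels was apart from its neighbor in the order, and the other 4 lay below the free RNA level of 0.732. Without low ribosomal barcodes, CD4 S100a4- stood at 0.933 (0.731 to 1.17) and overlapped CD4 S100a4+, at 0.526 (0.288 to 0.883). The ratio of CD8 to CD4 S100a4- barcodes was 0.459 (0.378 to 0.558) with all barcodes and 0.503 (0.378 to 0.675) without those of low ribosomal share. In the low ribosomal barcodes Itga6 was higher, at 2.65 against 0.933 in CD4 S100a4- and 1.67 against 0.470 in CD8 S100a4- barcodes.

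**Figure D2:**
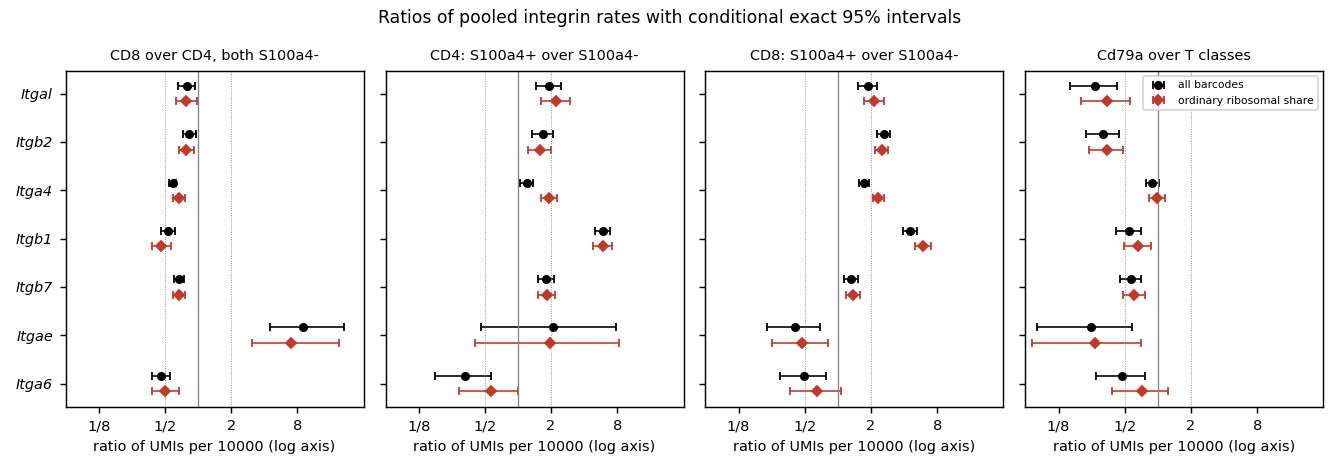
Ratios of pooled rates (horizontal log axis, dotted lines at 2-fold) of the 7 integrin genes in the 4 comparisons, with conditional exact 95% intervals. Black points use all barcodes and red diamonds leave out barcodes of low ribosomal share. Itgb1 lies at 5.91 and 4.55 in the S100a4 comparisons, and the Itga6 diamonds there have intervals that reach 1.

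The second comparison was between CD4-only barcodes with and without S100a4. Of 6 genes with at least 100 UMIs over both classes, Itgb1 was at least 2-fold higher in S100a4+ barcodes, as were 5.78% of 2697 genes, and Itga6 was at least 2-fold lower, as were 15.5%. Itgae, with 12 UMIs, lay below the minimum and its ratio had an interval of 0.456 to 7.73. The median log2 ratio of the 6 genes was 0.79, against -0.16 over all genes. With low ribosomal barcodes left out, 5 genes reached the minimum, of which Itgb1 and Itgal were at least 2-fold higher, as were 5.13% of 1617 genes, and none was 2-fold lower, as were 3.9%.

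The Itgb1 ratio was 5.91 (5.05 to 6.91) with all barcodes and 5.88 (4.86 to 7.15) without those of low ribosomal share, and 99.3% of genes had a lower ratio. Itgb7 stood at 4.20 (3.83 to 4.59) in S100a4- and 7.52 (6.54 to 8.60) in S100a4+ barcodes, a ratio of 1.79 (1.52 to 2.11). The LFA-1 genes were higher by a similar factor. Itgal stood at 1.58 (1.36 to 1.83) and 3.02 (2.41 to 3.73), a ratio of 1.90 (1.45 to 2.47), and Itgb2 at 2.44 (2.17 to 2.74) and 4.08 (3.37 to 4.90), a ratio of 1.67 (1.33 to 2.08). Itga4 differed least, at 7.99 (7.49 to 8.52) and 9.61 (8.50 to 10.8), a ratio of 1.20 (1.05 to 1.38). Without low ribosomal barcodes the Itga4 ratio was 1.92 (1.63 to 2.27), as its level in CD4 S100a4- barcodes was then 4.77 (4.30 to 5.28). The Itga6 ratio was 0.331 (0.177 to 0.571) with all barcodes and 0.564 (0.294 to 1.01) without them, so that the 2-fold call was lost.

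The third comparison was the same split among CD8-only barcodes. At least 2-fold higher in S100a4+ barcodes were Itgb1 and Itgb2, 2 of 7 genes, as were 3.26% of 5925 genes. At least 2-fold lower were Itgae and Itga6, 2 of 7, as were 5.05% of all genes. Without low ribosomal barcodes, Itgal and Itga4 passed as well, so that 4 of 7 genes were at least 2-fold higher, against 3.74% of 4814 genes, and Itgae alone was 2-fold lower, against 1.95%. The median log2 ratio of the 7 genes was 0.78, against 0.01 over all genes.

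Itgb1 differed most here too, with a ratio of 4.55 (3.95 to 5.23), and 5.94 (5.06 to 6.96) without low ribosomal barcodes, in both cases against an S100a4- level that lay below that of free RNA. Itgb2, the β2 chain of LFA-1, stood at 2.04 (1.90 to 2.18) in S100a4- and 5.30 (4.73 to 5.92) in S100a4+ barcodes, a ratio of 2.60 (2.27 to 2.97). Its partner Itgal stood at 1.24 (1.14 to 1.36) and 2.32 (1.95 to 2.74), a ratio of 1.86 (1.53 to 2.26). Itga4 stood at 4.68 (4.47 to 4.90) and 8.04 (7.34 to 8.80), a ratio of 1.72 (1.55 to 1.90). Without low ribosomal barcodes the Itga4 ratio was 2.33 (2.08 to 2.62). Its S100a4- level was then 3.2 (3.01 to 3.4), below the free RNA level of 4.11, and the part of free RNA in it was not tested. Itgb7 differed least, at 2.84 (2.67 to 3.01) and 3.73 (3.25 to 4.25), a ratio of 1.31 (1.13 to 1.52). The Itga6 ratio was 0.492 (0.296 to 0.776), and 0.643 (0.365 to 1.06) without low ribosomal barcodes. On the log2 scale this ratio was -1.02, and 0.27 when those barcodes were left out and the rest thinned, so that its direction was not kept.

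**Figure D3:**
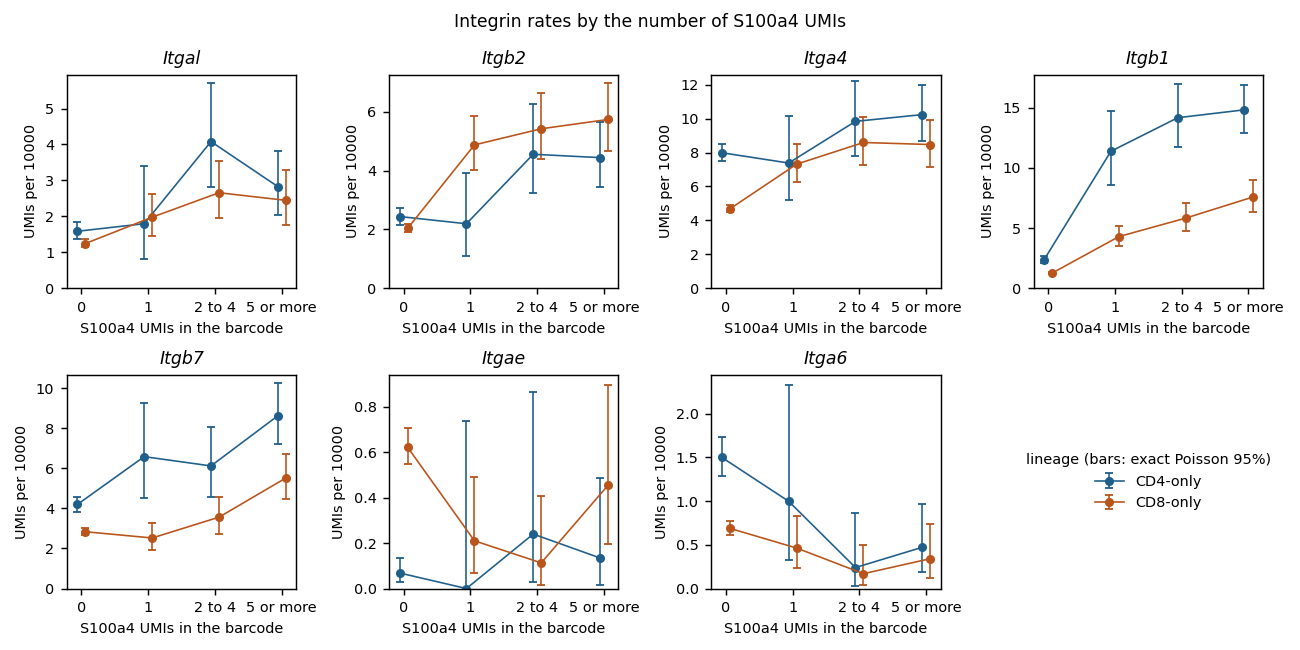
UMIs per 10000 (vertical axis, from 0) of each integrin gene in barcodes with 0, 1, 2 to 4 and 5 or more S100a4 UMIs (horizontal axis), for CD4-only (blue) and CD8-only (orange) barcodes, with exact Poisson 95% intervals. Itgb1 is already at 11.4 in CD4-only and 4.29 in CD8-only barcodes with 1 S100a4 UMI.

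For Itgb1, the largest step lay at the first S100a4 UMI. In CD4-only barcodes with 0, 1, 2 to 4 and 5 or more S100a4 UMIs, of which the last 3 groups held 11, 18 and 20 barcodes, Itgb1 stood at 2.37, 11.4, 14.2 and 14.8. In CD8-only barcodes it stood at 1.26, 4.29, 5.82 and 7.56, over 621, 36, 27 and 22 barcodes. The intervals of the barcodes with 0 were apart from the others in both lineages. Itgb2 followed the same course in CD8-only barcodes, at 2.04, 4.88, 5.43 and 5.74, whereas in CD4-only barcodes it stood at 2.44, 2.19, 4.56 and 4.45. Itgb7 in CD8-only barcodes was at 5.52 (4.47 to 6.73) in the group with 5 or more S100a4 UMIs, where 19 of its 97 UMIs came from 1 barcode, and at 3.56 (2.74 to 4.56) in the group with 2 to 4, with overlapping intervals.

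Within the CD8-only barcodes, Itga4 followed Gzmk or Cx3cr1 rather than S100a4. It stood at 16.3 (14.8 to 17.8) in the 57 S100a4- and 11.7 (10.6 to 12.9) in the 55 S100a4+ barcodes with Gzmk or Cx3cr1. In barcodes with neither of them it stood at 3.78 (3.59 to 3.99) in the 564 S100a4- and 2.65 (2.03 to 3.39) in the 30 S100a4+ barcodes. Without low ribosomal barcodes, those with Gzmk or Cx3cr1 stood at 11.9 (11 to 12.8) and the others at 2.37 (2.21 to 2.55). By contrast, Itgb1 was at 4.54 (3.79 to 5.39) in S100a4- barcodes with Gzmk or Cx3cr1, 4.0 (3.23 to 4.88) in S100a4+ barcodes without them and 6.90 (6.06 to 7.82) in barcodes with both, against 1.01 (0.906 to 1.11) in barcodes with neither. Itgb2 had the same order, at 5.0, 2.98, 6.87 and 1.81. Barcodes with Gzmk or Cx3cr1 made up 55 of 85 in the S100a4+ and 57 of 621 in the S100a4- class. The Itga4 levels of 3.78, 2.65 and 2.37 in barcodes without these genes lay below its free RNA level of 4.11. The Itgb1 level of 1.01 lay below 1.45, that of free RNA. In the split by Ly6c2 and Il2rb, Itga4 was lower with the memory genes. Among CD8 S100a4- barcodes, it stood at 2.25 (2.04 to 2.48) with both genes and 6.65 (6.30 to 7.01) in the others. Without low ribosomal barcodes these levels were 2.03 (1.82 to 2.25) and 4.27 (3.95 to 4.62). These 4 levels leave out the barcode highest in Itga4 of each group, and 2.25 and 2.03 also lay below 4.11. The part of free RNA in all these levels was not tested.

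Itga4, Itgb1 and Itgb2 were also high in barcodes of T cell clones. Among CD8-only barcodes, the 56 whose clonotype (a shared T cell receptor) was found in 2 or more cells stood at 12.3 (11 to 13.6) for Itga4, 5.01 (4.24 to 5.88) for Itgb1 and 6.66 (5.76 to 7.65) for Itgb2. The 461 whose clonotype was found once stood at 3.52 (3.33 to 3.73), 1.51 (1.39 to 1.65) and 2.21 (2.06 to 2.37). The first of these levels, that of Itga4, lay below its free RNA level of 4.11. Of the 56 barcodes, 25 held S100a4, against 52 of the 461. Only 12 CD4-only barcodes belonged to such clonotypes, and their Itgb1 level was 29.0 (24.9 to 33.7), against 3.77 (3.41 to 4.14) in 253 barcodes of single clonotypes. Of their 172 Itgb1 UMIs, 57 came from 1 barcode, without which the level was 23.7 (19.6 to 28.5), and 7 of the 12 barcodes held S100a4, against 41 of the 253. Itgb7 stood at 11.3 (8.77 to 14.4) in the 12 and 4.81 (4.41 to 5.23) in the 253 CD4-only barcodes. In the CD8-only barcodes Itgb7 stood level between shared and single clonotypes, at 2.92 (2.34 to 3.61) and 2.93 (2.75 to 3.11).

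The partners of Itga4 were read from single barcodes after thinning. Among barcodes with an Itga4 UMI, one of Itgb1 was found in 42 of 162 CD4 S100a4- (25.9%, interval 19.4 to 33.4), 22 of 26 CD4 S100a4+ (84.6%, 65.1 to 95.6), 58 of 313 CD8 S100a4- (18.5%, 14.4 to 23.3) and 35 of 56 CD8 S100a4+ barcodes (62.5%, 48.5 to 75.1). UMIs of both β chains, Itgb1 and Itgb7, were found in 15.4, 65.4, 7.67 and 44.6% of them. Itgb7 alone was found in 43.8 and 40.3% of the Itga4 barcodes of the S100a4- classes, and in 7.69 and 16.1% of those of the S100a4+ classes. In barcodes without an Itga4 UMI, one of Itgb1 was found in 14.3% (7.07 to 24.7) of CD4 S100a4-, 63.2% (38.4 to 83.7) of CD4 S100a4+, 18.9% (14.2 to 24.3) of CD8 S100a4- and 53.6% (33.9 to 72.5) of CD8 S100a4+ barcodes. These intervals overlapped those of the barcodes with Itga4 in each of the 4 classes.

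For LFA-1, an Itgb2 UMI was found in 75 of 151 CD8 S100a4- barcodes with Itgal (49.7%, 41.4 to 57.9) and in 33.1% (28.6 to 37.9) of the 411 without it. The shares were 51.6 and 36.5% without low ribosomal barcodes, with intervals of 41.0 to 62.1 and 31.1 to 42.1. In the other classes the shares with and without Itgal had overlapping intervals. For CD103, Itgb7 was found in 46 of 82 CD8 S100a4- barcodes with Itgae (56.1%) and in 44.8% of the 480 without it, again with overlapping intervals.

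The fourth comparison was between the Cd79a class and the 1072 barcodes of the T classes pooled. Of the 7 genes, 4 were at least 2-fold lower in Cd79a barcodes, as were 10.1% of 7281 genes, and none was 2-fold higher, as were 6.08%. The median log2 ratio of the 7 genes was -1.07, against 0.00 over all genes. Without low ribosomal barcodes 3 of the 4, all but Itga6, remained at least 2-fold lower, against 9.81% of 6205 genes, and none was higher, against 6.66%. Without the 23 Cd79a barcodes that held Cd3, 5 of 7 genes were at least 2-fold lower, Itgb1 among them with a log2 ratio of -1.08, as were 13.8% of 7224 genes, and none was higher, against 8.13%.

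Both LFA-1 genes and Itgae were among those at least 2-fold lower. Itgal stood at 0.405 (0.240 to 0.639), a ratio of 0.270 (0.159 to 0.429), and Itgb2 at 0.809 (0.567 to 1.12), a ratio of 0.319 (0.223 to 0.444). Itgae stood at 0.112 from 5 UMIs, of which 3 were in 1 barcode, a ratio of 0.247 (0.0795 to 0.583). The Itgal and Itgae levels lay under the free RNA levels (0.648 and 0.132), and that of Itgb2 was close to its own (0.852). The part of free RNA in these Cd79a levels was not tested, as the subtraction described above cannot show it. Itgb1 and Itgb7 had ratios of 0.545 (0.415 to 0.704) and 0.567 (0.452 to 0.704), and Itgb1, at 1.37, was also near its free RNA level of 1.45. Itga4 stood at 5.26 (4.61 to 5.98), against 5.89 in the T classes, a ratio of 0.893 (0.779 to 1.02), and was found in 41 of 79 thinned barcodes (51.9%). Without low ribosomal barcodes it stood at 4.22 (3.58 to 4.94) against 4.28, a ratio of 0.986 (0.832 to 1.16), and both of these levels were close to the free RNA level of 4.11.

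**Figure D4:**
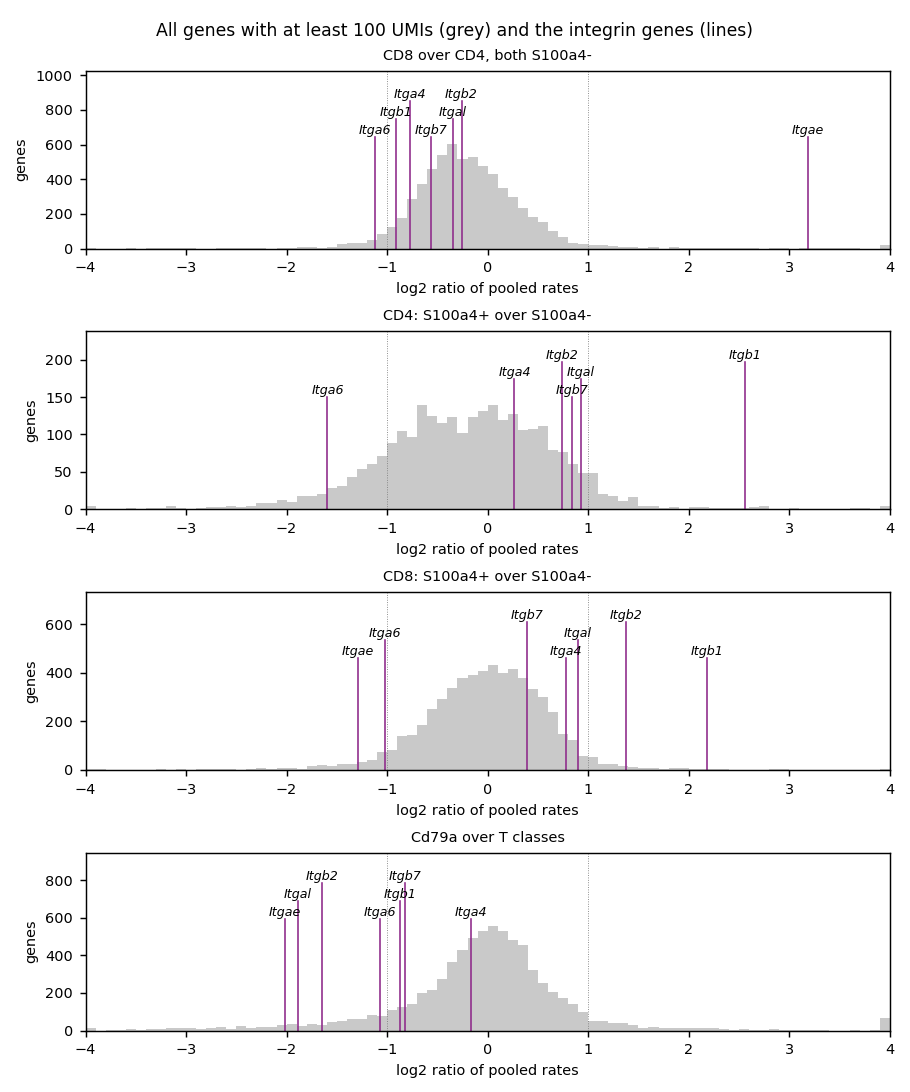
Number of genes (vertical axis) by log2 ratio of pooled rates (horizontal axis) for all genes with at least 100 UMIs in each of the 4 comparisons, with lines at the integrin genes and dotted lines at 2-fold. The end bars include genes beyond the axis. Itgae lies at 3.18 in the lineage comparison, Itgb1 at 2.56 and 2.18 in the S100a4 comparisons, and 6 of the 7 genes lie below -0.8 in the Cd79a comparison.

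Barcodes of low ribosomal share differed in integrin RNA from the others of their class. Itga4 stood at 14.5 (13.4 to 15.8) against 4.77 (4.30 to 5.28) in CD4 S100a4-, at 11.4 (10.6 to 12.2) against 3.2 (3.01 to 3.4) in CD8 S100a4- and at 10.4 (8.19 to 12.9) against 4.22 (3.58 to 4.94) in Cd79a barcodes. Since ribosomal protein UMIs are few in such barcodes by construction, the levels were also scaled to UMIs without ribosomal protein and mitochondrial genes. On that scale Itga4 stood at 15.4 against 6.56 in CD4 S100a4- and 12.2 against 4.86 in CD8 S100a4- barcodes, and Itga6 at 2.80 against 1.28 and 1.79 against 0.713. Itgb2 went the other way, at 2.12 (1.67 to 2.65) against 3.66 (3.18 to 4.19) and 1.97 (1.65 to 2.34) against 3.16 (2.93 to 3.41), and Itgb7 stood at 4.73 against 5.59 and 3.55 against 4.14. On the scale of all UMIs, Itgb7 stood higher in low ribosomal barcodes, at 4.47 against 4.06 and 3.32 against 2.73. Its direction thus depended on the scaling. On the same scale of all UMIs, Itgb1 stood at 2.99 against 2.07 in CD4 S100a4- and 2.61 against 0.961 in CD8 S100a4- barcodes. Itgal stood at 2.08 against 1.34 and 2.14 against 1.05. Among low ribosomal barcodes alone, the Itgb1 ratio of CD8 to CD4 S100a4- barcodes was 0.874 (0.689 to 1.11). What the low ribosomal barcodes are was not tested.

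**Figure D5:**
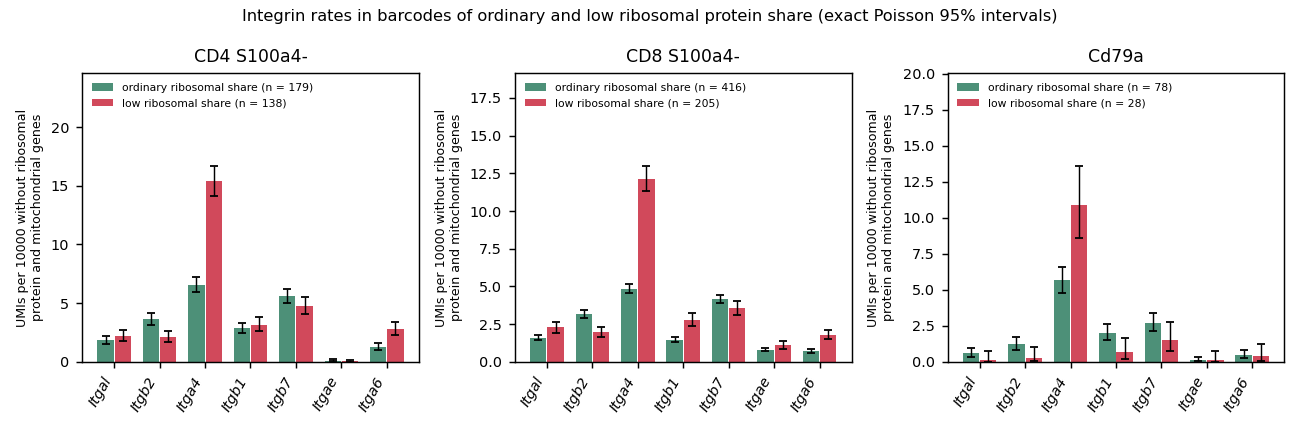
UMIs per 10000 without ribosomal protein and mitochondrial genes (vertical axis, from 0) of the 7 integrin genes in barcodes of ordinary (green) and low (red) ribosomal share, in the 3 classes with more than 20 low barcodes, with exact Poisson 95% intervals. Pairs of bars are to be compared within a gene, and Itga4 shows 15.4 against 6.56, 12.2 against 4.86 and 10.9 against 5.66.

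The other 19 integrin genes were little seen. Only 8 had at least 20 UMIs over the 5 classes, and Itga8 and Itgb6 had none. Itgb3, the β chain of platelet and vitronectin receptors, was listed with 227 UMIs, 139 of them in CD4 S100a4- barcodes. Itga2b, its platelet partner, followed the platelet genes Pf4 and Ppbp: in CD4 S100a4- barcodes it stood at 1.25 (0.717 to 2.04) in the 32 with one of them and at 0.0385 (0.0105 to 0.0985) in the 285 without. Itgav, with 211 UMIs, was highest in CD4 S100a4+ barcodes, at 0.745 (0.461 to 1.14). Itgax (CD11c) had 19 of its 35 UMIs in CD8 S100a4+ barcodes, at 0.322 (0.194 to 0.503) against 0.0354 (0.0194 to 0.0594) in CD8 S100a4-, and Itga2 (CD49b) had 11 of 37 in CD4 S100a4+ barcodes. Itga1, Itgam (CD11b) and Itgb5 had 32, 23 and 21 UMIs. Kits of this kind remove cells with CD11b, CD11c or CD49b on their surface, and the part of that step in these values was not tested. At least 2-fold higher with S100a4 were 2 of the 8 genes, Itga2 and Itgam, in CD4-only barcodes (11.1% of 10518 genes with at least 20 UMIs were). In CD8-only barcodes 5 of the 8 were, Itga1, Itga2, Itga2b, Itgam and Itgax (6.66%). Of the 11 Itga2b UMIs in CD8 S100a4+ barcodes, 10 were in the 11 barcodes with Pf4 or Ppbp. Itga2 and Itgam rested on 6 and 5 UMIs in that class. In CD4 S100a4+ barcodes, 5 of the 7 Itgam UMIs came from 1 barcode. None was higher in CD8 than in CD4 S100a4- barcodes (5.53%) or in Cd79a barcodes (10.2%), while 3, Itgb3, Itgb5 and Itga2b, were lower in CD8 S100a4- (8.17%) and 2, Itgb3 and Itgax, in Cd79a barcodes (11.6%). Barcodes with Pf4 or Ppbp held 16 of the 20 Itga2b UMIs in CD4 S100a4- and 28 of the 32 in CD8 S100a4- barcodes. Itgb5 had only 8 UMIs in each of these classes. Itgax had 1 UMI in Cd79a barcodes, fewer than the 3 counts that a class at 0 was set to.

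Genes that link integrins to the cytoskeleton or activate them lay on both sides. Of 22 such genes, 20 had at least 20 UMIs, and their median log2 ratio was 0.25 with S100a4 in CD4-only and 0.20 in CD8-only barcodes. Past 2-fold were 1 gene higher and 1 lower in the lineage comparison (5.53 and 8.17% of all genes with at least 20 UMIs were), 2 and 1 with S100a4 in CD4-only barcodes (11.1 and 14.3%), 2 and 0 in CD8-only barcodes (6.66 and 8.8%), and 0 and 2 in Cd79a barcodes (10.2 and 11.6%). Zyx, the focal adhesion protein zyxin, was at least 2-fold higher in 3 comparisons: it stood at 0.899 in CD4 S100a4-, 3.19 in CD4 S100a4+, 1.93 in CD8 S100a4- and 4.08 in CD8 S100a4+ barcodes. Cytip, which binds cytohesin-1 and restrains LFA-1 adhesion, stood at 7.58, 3.83, 3.66 and 2.59. Skap1 and Fyb, which form a T cell adaptor complex that activates LFA-1, were at 2.58 and 1.24 in Cd79a barcodes, against 7.37 to 17.4 and 4.29 to 8.09 in the T classes. Talin (Tln1) and kindlin-3 (Fermt3), which bind β chain tails, differed by less than 2-fold in all 4 comparisons.

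Of 12 genes of integrin ligands and tetraspanins, which sit beside integrins in the membrane, 6 had at least 20 UMIs, and Vcam1 and Madcam1 had none. In the lineage comparison 1 was at least 2-fold higher, Icam1, against 5.53% of all genes, and 2 were lower, Cd81 and Cd9, against 8.17%. Higher with S100a4 were 2 in CD4-only barcodes, Cd82 and Icam1, against 11.1%, and 2 in CD8-only barcodes, Cd82 and Cd151, against 6.66%. In Cd79a barcodes 1 was higher, Cd81, against 10.2%. Cd82 stood at 1.14 in CD4 S100a4-, 4.22 in CD4 S100a4+, 1.14 in CD8 S100a4- and 2.66 in CD8 S100a4+ barcodes, the same order as Itgb1 save that the S100a4- classes were alike. Icam1, the LFA-1 ligand, stood at 0.248 in CD4 S100a4- and 0.660 in CD8 S100a4- barcodes. Cd81, part of the B cell coreceptor, was at 1.69 in Cd79a and at most 0.31 in T barcodes.

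For each integrin, the genes most alike were those with the smallest Euclidean distance over the 5 centered log2 levels, among 4740 genes with at least 200 UMIs. They were Dgkz at 0.15 and Sdf4 at 0.291 for Itgb7, Antxr2 at 0.172 and Fkbp5 at 0.199 for Itga4, and Abr at 0.212 and Rinl at 0.258 for Itgal. Abr was also the nearest gene to Itgb2, at 0.561, and Dnah8 at 0.253 and Stambpl1 at 0.347 were nearest to Itga6. Itgb1 and Itgae had no close match: their nearest genes were Pycard at 1.08 and Pde2a at 0.941. The levels of 5 classes of 1 library are few points, and the distances are a description.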

How the data were processed

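The library was made with 10x Genomics kits from blood T cells of 1 vehicle-treated SCLC mouse. The authors processed the reads with Cell Ranger, and the deposited matrix holds UMI counts that were neither normalized nor filtered for cells, with 32285 genes and 300213 barcodes. Its header names Cell Ranger 4, and the submitters' processing notes name GRCm38. A second deposited table of T cell receptor contigs gave the clonotypes.

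From these counts, UMIs were pooled per class with Python 3.11.15, numpy 2.4.6, scipy 1.17.1 and pandas 2.3.3. Intervals were exact Poisson for rates, conditional exact for ratios and exact binomial (Clopper-Pearson) for shares, all at 95%, and cover counting error only. A gene was counted past a 2-fold ratio where both classes together held at least 100 UMIs, and a class at 0 was set to 3 counts. The 1600 barcodes held 1334 to 18399 UMIs, with a median of 3935. No doublet caller was run, barcodes with both Cd4 and CD8 UMIs were left out, and Cd79a barcodes were kept whatever else they held. Free RNA was read from 20532 barcodes of 10 to 50 UMIs.

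The integrin genes, marker lists and rules were chosen with earlier results of these data known. Named genes were the 7 integrins, other integrins with at least 20 UMIs, the genes of the adaptor and ligand lists furthest in each direction or at 0, and the genes nearest in pattern, from which the genes that define the classes were left out. The talin and kindlin-3 genes were named after their values were seen. Positions and promoters came from RefSeq, GRCm38.p6. Ratios and their intervals were tested on simulated class sums drawn as Poisson counts. These held no single barcodes, so the uneven spread of UMIs over barcodes was not covered. There were no replicates, so no paired fit was possible.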

Additional observations from a re-analysis of the deposited data

Results flagged for a closer look

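Barcodes of 200 to 1330 UMIs lay below the limit used in the comparisons and held integrin RNA above the level of every T class for Itga6 and Itgb2 and above all but CD4 S100a4+ for Itgb1. Over 1908 such barcodes Itgb1 stood at 11.2 UMIs per 10000 (exact Poisson interval 10.5 to 12) and Itga6 at 9.83 (9.12 to 10.6). Itgb2 stood at 5.68 (5.15 to 6.26), with an interval that overlapped that of the highest T class, CD8 S100a4+ at 5.30 (4.73 to 5.92), and Itgal at 2.34 (2.00 to 2.72). A UMI of Pf4 or Ppbp was found in 77.6% of them and one of Cd3 in 11.1%, and Itga2b stood at 35.5 and Itgb3 at 16.7. In the 428 barcodes without Pf4 or Ppbp, Itgb1 stood at 3.17 (2.39 to 4.13) and Itga6 at 2.14 (1.5 to 2.94). Itgae, Itgb7 and Itga4 were low, at 0.0832, 0.693 and 2.05 over all 1908.

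Itgb3 stood at 1.19 (1.0 to 1.41) in CD4 S100a4- barcodes and 0.816 (0.517 to 1.22) in CD4 S100a4+, against 0.119 (0.0873 to 0.158) in CD8 S100a4-, 0.169 in CD8 S100a4+ and 0.180 in Cd79a barcodes. Without barcodes that held Pf4 or Ppbp the level in CD4 S100a4- was 1.22 (1.02 to 1.45), while that of Itga2b was 0.0385. It was one of the integrin genes outside the 7 compared, and no replicate bears on it.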

How the results depend on the processing

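The 28 log2 ratios of the 7 genes in the 4 comparisons were recomputed under alternative limits, thinning, scalings and left-out barcodes, 13 or 14 alternatives for each ratio. With a fold of 1.5 and other UMI minima, which bear on the counts of genes only, 18 alternatives were run, of which 2 (1 barcode per clonotype, and low ribosomal barcodes left out together with thinning) were chosen after seeing the data. Of the 28, 25 kept their sign under every alternative run on them. Itga6 with S100a4 in CD8-only barcodes was -1.02 and turned to 0.27 when low ribosomal barcodes were left out and the rest thinned. Itga4 with S100a4 in CD4-only barcodes ranged from -0.00 to 0.94, and Itga4 in Cd79a against T barcodes from -0.58 to 0.13. In the lineage comparison, 2 genes at 2-fold became 1, Itgae, with clonotyped T barcodes only, with the mean over barcodes, with scaling without ribosomal protein and mitochondrial genes, and with median-of-ratios size factors. A fold of 1.5 gave 4 of 7 genes there, as it did 26.6% of 6413 genes, and 5 of 6 in place of 2 for S100a4 in CD4-only barcodes, as it did 48.4% of 2697. The cause was not tested. Itgb1 with S100a4 ranged from 1.82 to 2.71 in CD4-only and from 1.96 to 2.78 in CD8-only barcodes. In CD4-only barcodes, Itgal with S100a4 ranged from 0.17 to 1.15, Itgb2 from 0.36 to 0.88 and Itgb7 from 0.38 to 0.88. Itgae rests on 12 UMIs in CD4-only and 5 in Cd79a barcodes, and with 1 mouse no spread between animals is known. No paired analysis was possible because the labels give 1 sample.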
